A study of Mus musculus with 15 samples.

Results

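The 10 genes described here, in mammary tumors and glands of mice, serve contraction in myoepithelial and smooth muscle cells: the actins Acta2 and Actg2, the actin-binding proteins Tagln, Cnn1 and Lmod1, the myosin genes Myh11 and Myl9, the myosin light chain kinase gene Mylk, the intermediate filament gene Des and the oxytocin receptor gene Oxtr. They were chosen by symbol, for what they encode, with earlier results of these data known. All 10 were found among the 51826 genes of the expression tables. In the first library of each mouse, Myh11, Mylk, Lmod1 and Oxtr were lower in every Trim24COE tumor than in every control gland. Acta2 (log2 difference -2.01) and Tagln (-0.94) did not pass the test. Acta2 passed with adipocyte markers as a covariate and not with basal markers, and its call also depended on the glands used. Acta2 and Tagln were among the 3 most abundant of the 10 in every tumor and in every gland. Oxtr stood at nearly the same level in all 4 control glands, and in the 3 tumors that were not of the Trim24COE line it was between 7.07 and 32.1 TPM, a unit that gives each gene its length-corrected share of the transcripts in a library.

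Myoepithelial cells lie between the milk-secreting luminal cells and the basement membrane, and they share much of their contractile machinery with the smooth muscle of vessel walls. Oxytocin binds its receptor, which raises calcium inside the cell; calcium leads to the activation of myosin light chain kinase, the kinase phosphorylates the regulatory light chain, and smooth muscle myosin then pulls on actin filaments so that milk is ejected. Serum response factor, with its partners myocardin and the myocardin-related factors, is known to drive many of these genes through short promoter elements called CArG boxes.

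RNA of whole tissue from 13 mice was sequenced in 15 libraries. Trim24COE mice carry a cDNA of FLAG-tagged mouse Trim24 behind a floxed stop cassette, and MMTV-Cre, which is active in mammary epithelium, removes the stop. Their tumors were labelled carcinosarcoma in mice 64, 567 and 897 and carcinoma in mice 89, 273_5 and 3956. The 4 control glands, from mice 133, 392, 417_3 and 517_3, were disease-free mammary glands of mice with MMTV-Cre alone, so control and Trim24COE mice share the Cre transgene. The 3 non-TRIM24 tumors, 219, FVB001 and FVB002, arose spontaneously in mice whose genotype is labelled unknown, and they too were labelled carcinoma. The labels give strain FVB for all samples, the series text gives FVB/129 for the control mice, and the labels give no ages. The reads of pathologists in the records of the study differ for tumors 89, 567 and 3956, and the classes used here are those of the labels.

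The first libraries of the Trim24COE tumors and control glands were deposited as 1 set, called batch 1 here. The non-TRIM24 tumors came in another set, batch 2, with a second library each of gland 133 and tumor 3956. A batch in this text is a deposited set. Because TPM are scaled to 1 fixed sum, sequencing depth and the counting error that goes with it are not known. Trim24 itself ranged from 14.5 to 22.4 TPM in control glands and from 10.6 to 24.1 TPM in Trim24COE tumors (log2 difference -0.24 ± 0.26 SE, limma adjusted p = 0.557), so its level did not set the tumors apart from the glands and groups are named by their labels throughout. Control glands held RNA of the basal markers Krt5 (from 40.8 TPM) and Krt14 (from 34.2 TPM) and of the luminal marker Krt8 (from 158 TPM) in each of the 4.

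The control glands differed widely among themselves. Summed over the 10 genes, the level was 424 TPM in gland 133 and 616 TPM in gland 392, against 3673 TPM in 417_3 and 3748 TPM in 517_3. The tissue makeup differed along with it: the summed TPM of 11 adipocyte markers was 26289 and 39257 in glands 133 and 392 and 1829 and 2007 in 417_3 and 517_3, and that of 15 basal and myoepithelial markers was 291 and 345 against 3273 and 3178. The comparisons of Trim24COE tumors with the glands are therefore given with all 4 and then with either pair. In whole tissue, fewer cells of a type and less RNA per cell cannot be told apart, and this holds for every difference below.

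**Figure D1:**
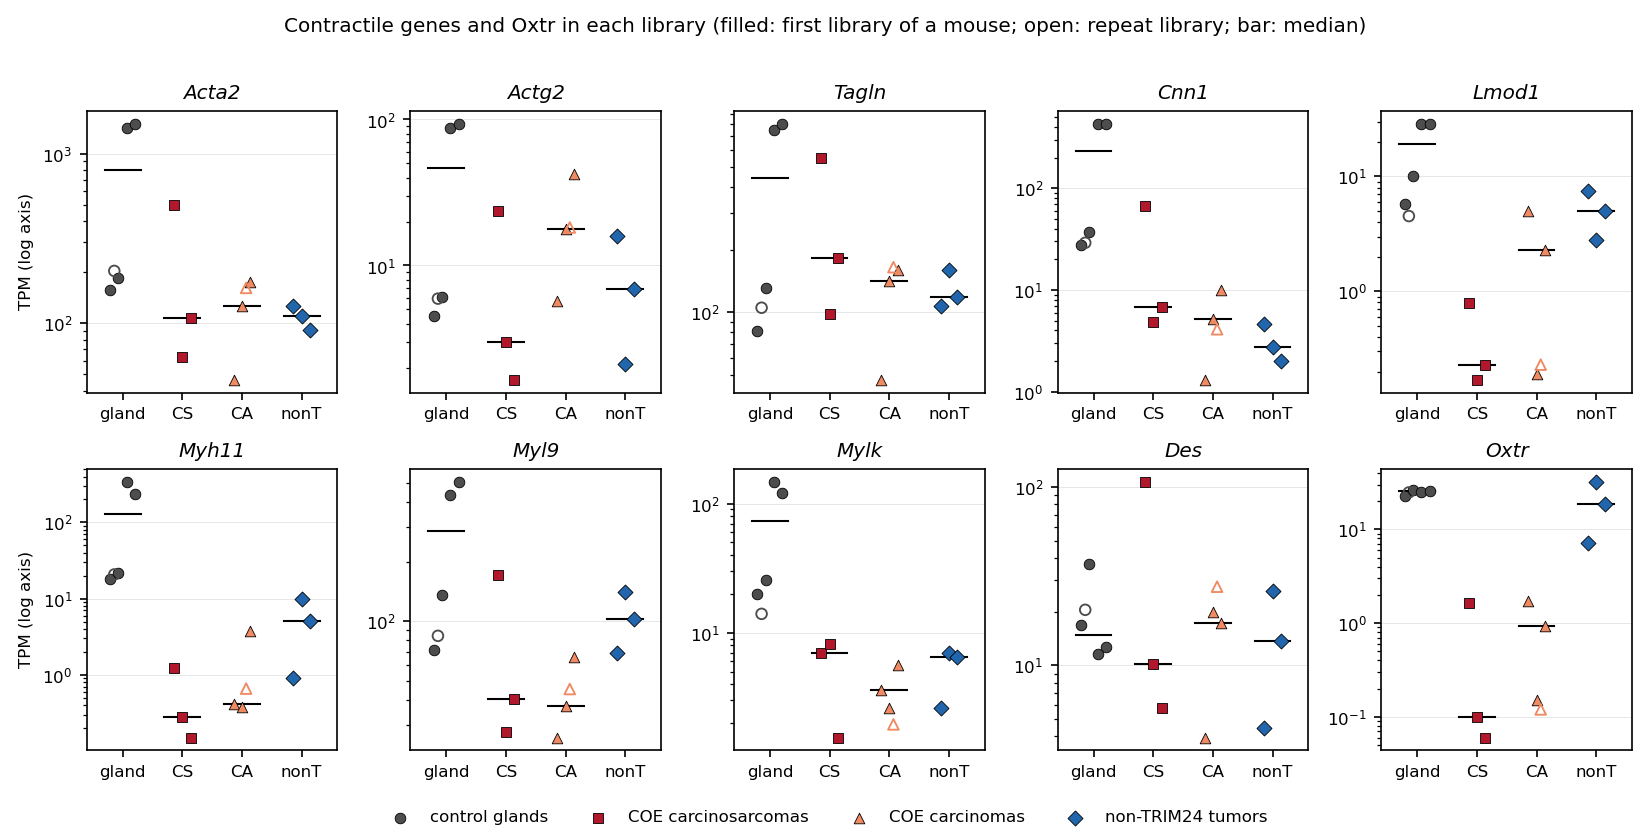
TPM of the 10 genes on log axes in control glands, Trim24COE carcinosarcomas (CS), Trim24COE carcinomas (CA) and non-TRIM24 tumors (nonT). Filled symbols are the first library of each mouse, open symbols the repeat library of mice 133 and 3956, and bars the median of first libraries; 2 glands lie well above the other 2 for most genes, while the Oxtr values of the 4 glands sit between 22.7 and 26.1 TPM.

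All 6 Trim24COE tumors were first compared with the 4 control glands, a contrast that asks what had changed between the tumors and the tissue of origin. Of the 10 genes, 6 were lower at a limma adjusted p under 0.05 and 0 were higher, where 9.13% of all 15196 genes tested were called lower. In first libraries the 4 genes Myh11, Mylk, Lmod1 and Oxtr were lower in each tumor than in each gland, and 7.20% of all tested genes were below without overlap. Myh11, Lmod1 and Oxtr each reached 1 TPM in only 2 of the 6 tumors and so entered the test through the glands. The p-values measure the spread between these mice only.

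Acta2 encodes smooth muscle alpha-actin, the usual stain for myoepithelium. Its level was 157 TPM in gland 133, 185 in 392, 1413 in 417_3 and 1498 in 517_3. The carcinosarcomas stood at 63.4 (64), 499 (567) and 107 TPM (897), and the carcinomas at 175 (89), 46.3 (273_5) and 126 TPM (3956). Tumor 567 lay above the lower pair of glands and below the higher pair. The log2 difference between Trim24COE tumors and glands, on the log2(TPM + 1) scale used for every fold change here, was -2.01 ± 0.80 (SE), which did not pass the test (limma adjusted p = 0.106). With the mean adipocyte level as a covariate it was -3.47 and passed (adjusted p = 0.0469), 1 of 7 genes called in that fit. The share of all genes called in that fit is not given. Adipocyte marker sums of tumors and glands did not overlap, so that fit cannot separate fat from group.

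Actg2, smooth muscle gamma-actin, showed still less separation. It was 4.48 and 6.12 TPM in glands 133 and 392 and 87.3 and 93.2 TPM in 417_3 and 517_3. Carcinoma 89 reached 42.6 TPM, carcinoma 3956 17.8 and carcinoma 273_5 5.74, and the carcinosarcomas held 23.6 (567), 2.97 (64) and 1.65 TPM (897). The tumors thus spanned the range from below the lower glands to between the pairs (log2 difference -1.17 ± 1.03 SE, limma adjusted p = 0.462). Actins are near-identical in sequence, so reads may be split between Acta2, Actg2 and the skeletal actin gene Acta1, and these levels are uncertain to that extent.

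Among actin-binding genes, Tagln, which encodes transgelin (SM22-alpha), was the least changed. It stood at 81.3, 131, 756 and 804 TPM in glands 133, 392, 417_3 and 517_3, and at 97.7, 550 and 182 TPM in carcinosarcomas 64, 567 and 897. The carcinomas 89, 273_5 and 3956 held 159, 47.3 and 141 TPM. The tumors other than 273_5 lay above the lowest gland, and the difference from all 4 glands was -0.94 ± 0.77 (SE, limma adjusted p = 0.426). Tagln was the more abundant of Tagln and Acta2 in all tumors of the Trim24COE line but 89, and Acta2 was the more abundant in each gland.

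Cnn1 encodes calponin, which restrains actomyosin in differentiated smooth muscle. It was 27.6 and 37.6 TPM in glands 133 and 392 and 429 and 427 TPM in 417_3 and 517_3. In the carcinomas it was 10.1 (89), 1.31 (273_5) and 5.16 TPM (3956), all below the glands, and in the carcinosarcomas it was 4.84 (64), 67.6 (567) and 6.83 TPM (897). Carcinosarcoma 567 alone of the 6 tumors reached the range of the glands. Over all tumors Cnn1 was lower, with a log2 difference of -3.75 ± 1.01 (SE, limma adjusted p = 0.0277). The call was lost without gland 417_3 (adjusted p = 0.081), gland 517_3 (0.0826), tumor 64 (0.0563) or tumor 897 (0.0514), and without the filter on low values (0.0751).

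Lmod1, leiomodin, which nucleates actin filaments in smooth muscle, was low throughout the tumors. The glands held 5.72 (133), 10.1 (392), 28.6 (417_3) and 28.4 TPM (517_3). The carcinosarcomas held 0.17 (64), 0.79 (567) and 0.23 TPM (897), and the carcinomas 2.28 (89), 5.02 (273_5) and 0.19 TPM (3956). In first libraries no tumor overlapped the glands, although carcinoma 273_5 came within 1 TPM of gland 133 (log2 difference -3.01 ± 0.58 SE, limma adjusted p = 0.00645). An exact permutation test, two-sided, gave p = 0.00476, which is the minimum for 6 against 4. The repeat library of gland 133 held 4.52 TPM, below carcinoma 273_5, so the separation holds for first libraries only.

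Myh11, the smooth muscle myosin heavy chain and a marker of the differentiated contractile state, had the largest difference of the 10. It was 17.8 and 21.4 TPM in glands 133 and 392 and 340 and 235 TPM in 417_3 and 517_3. In the carcinosarcomas it was 0.28 (64), 1.23 (567) and 0.15 TPM (897), and in the carcinomas 3.79 (89), 0.42 (273_5) and 0.38 TPM (3956). The highest tumor was well under the lowest gland, and the log2 difference was -5.43 ± 0.83 (SE, limma adjusted p = 0.00196; exact permutation test, two-sided, p = 0.00476).

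Myl9 encodes the regulatory light chain that the kinase phosphorylates. Its values were 71.3, 136, 434 and 505 TPM in glands 133, 392, 417_3 and 517_3, 27.6, 171 and 40.6 TPM in carcinosarcomas 64, 567 and 897, and 65.6, 25.8 and 37.4 TPM in carcinomas 89, 273_5 and 3956. Only tumor 567 overlapped the glands (log2 difference -2.14 ± 0.64 SE, limma adjusted p = 0.0412). The call held in 3 of the 10 omissions of a mouse. It was lost without gland 392 (limma adjusted p = 0.0571), 417_3 (0.111) or 517_3 (0.116), and without tumor 64 (0.0808), 273_5 (0.066), 897 (0.0744) or 3956 (0.0702). Without the filter on low values it was lost as well (0.101).

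Mylk, myosin light chain kinase, separated the groups fully. It was 20.0 (133), 25.5 (392), 147 (417_3) and 120 TPM (517_3) in the glands. In the tumors it was 8.22 (64), 6.97 (567), 1.54 (897), 5.63 (89), 3.61 (273_5) and 2.63 TPM (3956). The highest tumor, 64, was well below the lowest gland, and the log2 difference was -3.42 ± 0.60 (SE, limma adjusted p = 0.00407; exact permutation test, two-sided, p = 0.00476).

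Des encodes desmin, the muscle intermediate filament protein, which skeletal muscle fibers also make in quantity. It was 16.8, 37.0, 11.5 and 12.6 TPM in glands 133, 392, 417_3 and 517_3, so the order of the glands was opposite to that of the other filament genes. It was 10.2, 107 and 5.76 TPM in carcinosarcomas 64, 567 and 897, and 17.3, 3.94 and 20.0 TPM in carcinomas 89, 273_5 and 3956. The groups overlapped (log2 difference -0.23 ± 0.74 SE, limma adjusted p = 0.865). The summed TPM of 14 skeletal muscle markers was 597 and 3550 in glands 133 and 392, 18.2 and 16.9 in 417_3 and 517_3, and 1436 in tumor 567, with Ckm, Acta1 and Mylpf above 0 in each of these groups, so muscle RNA moved with Des, and its part in the Des values was not tested.

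Oxtr, the receptor at the head of the pathway, had the smallest spread among glands and the clearest separation. The glands held 22.7 (133), 26.1 (392), 25.2 (417_3) and 25.9 TPM (517_3), a mean of 24.9 ± 1.56 TPM (SD, n = 4). The carcinosarcomas held 0.10 (64), 1.64 (567) and 0.06 TPM (897), and the carcinomas 0.92 (89), 1.73 (273_5) and 0.15 TPM (3956). Every tumor lay far below every gland, with a log2 difference of -3.99 ± 0.34 (SE, limma adjusted p = 0.000134; exact permutation test, two-sided, p = 0.00476). Unlike Acta2 or Myh11, Oxtr did not follow the split of the glands by fat: it was as high in 417_3 and 517_3, with Adipoq at 10.2 and 10.8 TPM, as in 133 and 392, with Adipoq at 1718 and 1946 TPM.

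The choice of glands decided several of these calls. Against glands 417_3 and 517_3 alone, 7 of the 10 genes were called lower in Trim24COE tumors, Acta2 among them (log2 difference -3.55, limma adjusted p = 0.0135). Against glands 133 and 392 alone, 3 were called lower, namely Myh11 (-3.54, adjusted p = 0.00333), Mylk (-2.17, adjusted p = 0.0186) and Oxtr (-3.96, adjusted p = 0.00131). Lmod1 came close there (-2.12, adjusted p = 0.0507), while Cnn1 (-1.90, adjusted p = 0.222) and Myl9 (-1.02, adjusted p = 0.307) lost their calls. Acta2 was not called against this pair (log2 difference -0.46, limma adjusted p = 0.692). Tagln and Actg2 had a positive difference from this pair, 0.52 and 0.77 on the log2 scale, neither past the test (adjusted p = 0.65 and 0.62). Both pairs were chosen after the marker sums had been seen. For either pair the share of all genes called is not given, so these counts stand without it.

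The order of the genes within a library changed with the same contrast. The ratio of Acta2 to Myh11, taken within each library, was 8.79 in gland 133, 8.66 in 392, 4.15 in 417_3 and 6.39 in 517_3. In the carcinosarcomas it was 227 (64), 406 (567) and 711 (897), and in the carcinomas 46.3 (89), 110 (273_5) and 332 (3956). The lowest tumor was above the highest gland. Most tumor ratios rest on a Myh11 value under 1 TPM, so their size is loosely set; in tumor 3956 the repeat library gave 245.

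**Figure D2:**
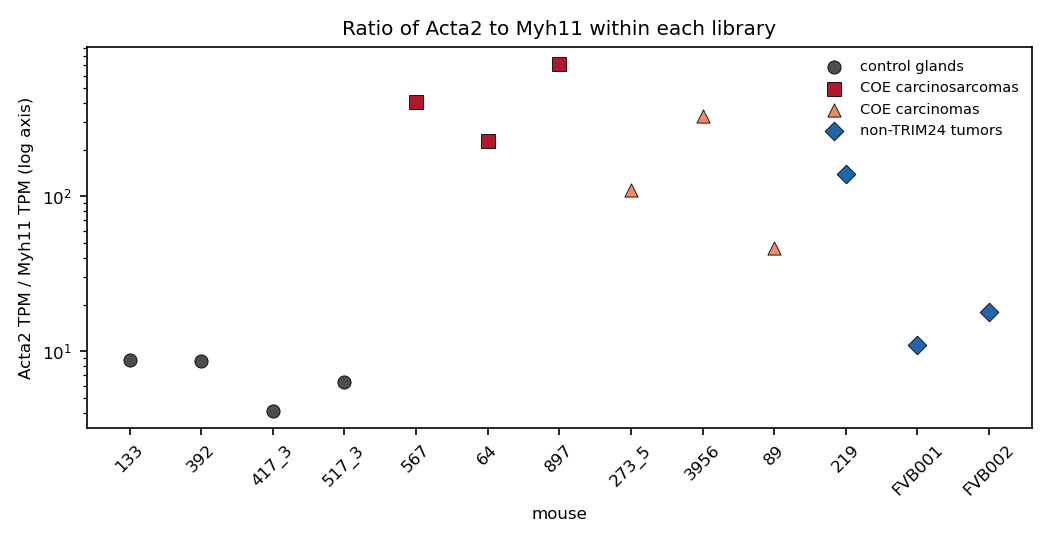
Ratio of Acta2 TPM to Myh11 TPM, on a log axis, in the first library of each of the 13 mice, by group. The 4 control glands lie between 4.15 and 8.79, the 6 Trim24COE tumors between 46.3 and 711, and non-TRIM24 tumors FVB001 and FVB002 at 11.03 and 18.0 lie nearer the glands than 219 at 140.

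Promoter sequence is shown for Acta2 and Myl9, which hold CArG matches, and for Oxtr, which has none. The RefSeq table for GRCm38.p6 held windows, from 250 bases before to 50 after the start site, for 7 of the 10 genes: Acta2, Cnn1, Mylk, Myl9, Lmod1, Des and Oxtr. Tagln, Myh11 and Actg2 were not matched. Both strands were searched for the CArG box, of the form CCNNNNNNGG with its middle 6 bases all A or T, and for CArG-like matches with at least 5 of these 6 A or T, the box being one of these. A CArG box stood in 1.63% of all 32851 promoter windows and a CArG-like match or box in 9.98%. Of the 7 genes, Myl9 held a box and a CArG-like match and Acta2 held 2 CArG-like matches. Given 5′ to 3′ on the strand of the gene, with the matches in capitals, are the 2 sites of Acta2 with 10 bases on either side (chr19:34255438-34255467 and chr19:34255388-34255417, minus strand) and, for Myl9 (chr2:156775214-156775419, plus strand) and Oxtr (chr6:112489944-112490075, minus strand), the part of the window that lies before the gene in the GENCODE annotation as well.
Acta2 site 1: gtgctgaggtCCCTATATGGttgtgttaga
Acta2 site 2: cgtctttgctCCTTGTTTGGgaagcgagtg
Myl9: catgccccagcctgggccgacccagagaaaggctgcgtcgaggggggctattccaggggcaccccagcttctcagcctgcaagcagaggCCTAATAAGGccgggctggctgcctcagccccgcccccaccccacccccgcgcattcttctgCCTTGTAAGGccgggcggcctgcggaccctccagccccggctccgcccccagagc
Oxtr: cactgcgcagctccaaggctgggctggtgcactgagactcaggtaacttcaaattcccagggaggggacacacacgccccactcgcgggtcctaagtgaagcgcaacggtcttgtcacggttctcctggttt
In Acta2 the matches begin 84 and 34 bases before the start site of RefSeq, inside the longer first exon that GENCODE gives this gene, and in Myl9 the box begins 161 and the CArG-like match 99 bases before it. Cnn1, Mylk, Lmod1, Des and Oxtr had no match in their windows, which says only that these letters are absent there. The window of Mylk (chr16:34784700-34784999) lies wholly inside the gene, which GENCODE starts at 34745210. The bases before that start were not searched. Among these, Cnn1, Lmod1 and, with that limit on its window, Mylk followed the split of the glands as Acta2 and Myl9 did. In the files Srf, serum response factor, was 12.9 and 13.2 TPM in glands 133 and 392, 99.0 and 81.3 TPM in 417_3 and 517_3, and between 17.7 and 39.95 TPM in Trim24COE tumors (log2 difference -0.55, limma adjusted p = 0.538). Its level was higher in the same 2 glands as that of Acta2 and Myl9, and of Cnn1, Mylk and Lmod1, which have no match in the windows searched.

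The carcinosarcomas, tumors with epithelial and spindle-cell parts, were then compared with the glands on their own, and the carcinomas likewise; both comparisons use the same 4 glands. In carcinosarcomas 4 of the 10 genes were lower (13.1% of all 15287 genes tested were called lower) and 4 lay below the glands without overlap (21.6% of all). They were Myh11 (log2 difference -5.68, limma adjusted p = 0.00905), Mylk (-3.30, adjusted p = 0.0235), Lmod1 (-3.54, adjusted p = 0.00501) and Oxtr (-4.15, adjusted p = 0.000828). Of these, Myh11 and Oxtr reached 1 TPM only in tumor 567 and Lmod1 in no carcinosarcoma, so they entered the test through the glands. Mylk lost its call without gland 517_3 (adjusted p = 0.0507) or tumor 64 (0.0611), 567 (0.0604) or 897 (0.0862), or without the filter on low values (0.0806), while the other 3 kept theirs in all 7 omissions. Against 417_3 and 517_3 alone 8 genes were called lower, and against 133 and 392 alone 4, with no share of all genes given for either pair.

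In carcinomas 3 of the 10 genes were lower (1.92% of all 15479 genes tested), and 6 lay below every gland in first libraries (10.7% of all). Myh11 (log2 difference -5.18, limma adjusted p = 0.0487), Mylk (-3.55, adjusted p = 0.0430) and Oxtr (-3.83, adjusted p = 0.00740) were called. Here Myh11 reached 1 TPM only in tumor 89 and Oxtr only in tumor 273_5, so both entered the test through the glands. Cnn1 (-4.46, adjusted p = 0.0690), Myl9 (-2.40, adjusted p = 0.103) and Lmod1 (-2.48, adjusted p = 0.0998) lay below every gland and did not pass. With each mouse omitted in turn the count ran from 1 to 5, and it was 5 without gland 133, where Cnn1 and Myl9 were called too (adjusted p = 0.0469 and 0.0442). Without tumor 89, 273_5 or 3956 or gland 417_3 or 517_3 it was 1, since Myh11 lost its call (adjusted p = 0.0766, 0.131, 0.15, 0.092 and 0.106 in that order) and so did Mylk (0.0838, 0.109, 0.133, 0.0843 and 0.0975). Both also lost it without the filter on low values (0.160 and 0.141), and Mylk with the second library of mice 133 and 3956 (0.0644). Oxtr stayed lower in all 7 omissions, with adjusted p between 0.00654 and 0.0351.

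**Figure D3:**
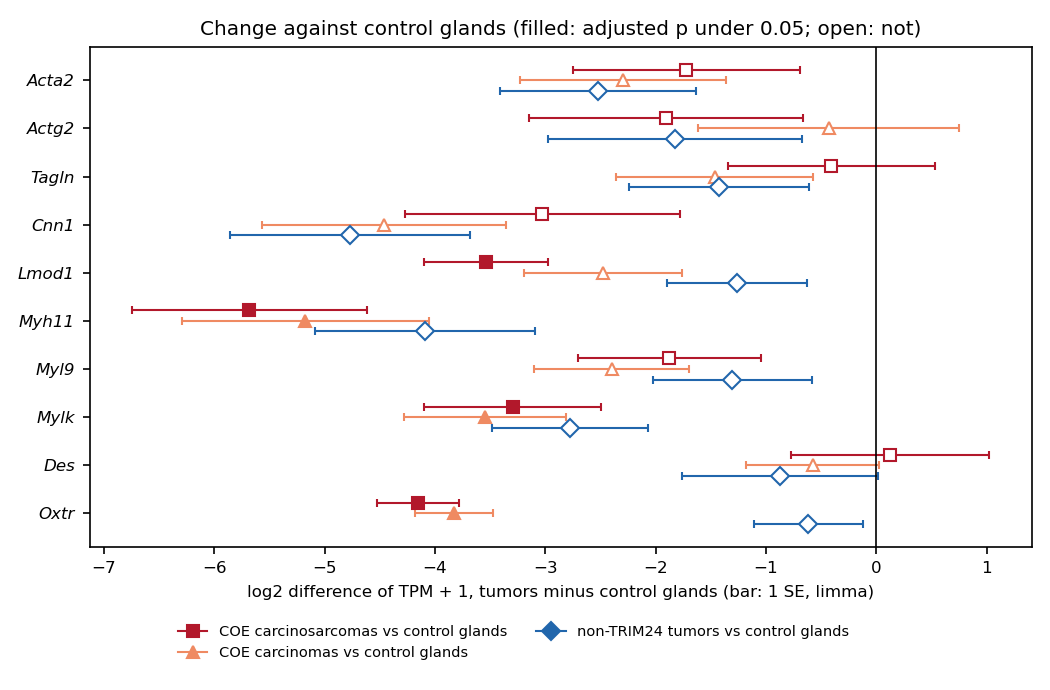
Log2 difference of TPM + 1 from the 4 control glands for the 10 genes, in carcinosarcomas, carcinomas and non-TRIM24 tumors, with bars of 1 SE from limma; filled symbols have an adjusted p under 0.05. The 3 comparisons share the glands; Oxtr was at -4.15 and -3.83 in the Trim24COE classes and at -0.62 in non-TRIM24 tumors.

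Between carcinosarcomas and carcinomas, 0 of the 7 genes tested differed by limma at an adjusted p under 0.05, and 0 had an unadjusted p under 0.05 (0.698% of all 14193 genes were called). The largest differences were 1.44 ± 1.01 (SE) for Cnn1 and -1.47 ± 0.98 (SE) for Actg2, on the log2 scale. The former fell to 0.32 without tumor 567, which had the highest Acta2, Tagln, Cnn1, Myl9 and Des of all 6 tumors. Myh11, Lmod1 and Oxtr were too low in both classes for the fit, and an exact permutation test, two-sided, gave p = 0.5, 0.3 and 0.5, where 3 against 3 cannot go below 0.1. Fitted without the filter on low values, their log2 differences were -0.51, -1.06 and -0.32 (limma adjusted p = 0.809, 0.744 and 0.862). With 3 tumors a class these values do not show that the classes are alike.

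Non-TRIM24 tumors held the same genes at different levels, in a comparison that asks which changes go with tumors at large. Acta2 was 126 (219), 111 (FVB001) and 90.9 TPM (FVB002), Cnn1 4.68, 2.77 and 1.99 TPM, and Mylk 2.63, 6.97 and 6.47 TPM in the same order. Myh11 was 0.90 (219), 10.04 (FVB001) and 5.04 TPM (FVB002). These 4 genes lay below all glands, as did 23.9% of all genes tested, and all had an unadjusted limma p under 0.05. With the batch term and Benjamini-Hochberg adjustment 0 of the 10 genes were called (0.709% of all 16775 were), at adjusted p of 0.0686 for Cnn1, 0.0827 for Myh11, 0.0899 for Mylk and 0.167 for Acta2. The comparison leans on 1 gland and 1 tumor with a library in both batches. In batch 2 alone, gland 133 is the only gland. The log2 differences there were -0.90 for Acta2, -2.91 for Cnn1, -2.12 for Myh11 and -1.32 for Mylk. With all libraries they were -2.52, -4.77, -4.09 and -2.77 in the same order. For 4 other genes the sign turned in batch 2 alone: Tagln went from -1.42 to 0.27, Myl9 from -1.31 to 0.24, Actg2 from -1.82 to 0.11 and Lmod1 from -1.26 to 0.069, none of them past the test with all libraries. The other genes overlapped the glands: Tagln was 107, 160 and 118 TPM, Myl9 69.0, 141 and 103 TPM, Lmod1 7.41, 2.82 and 5.04 TPM, Actg2 15.9, 2.13 and 6.88 TPM, and Des 4.44, 26.01 and 13.7 TPM in 219, FVB001 and FVB002. Tagln and Myl9 were above the lowest gland in at least 2 of the 3 tumors. Without the batch term Cnn1, Myh11 and Mylk were called (adjusted p = 0.0281, 0.0454 and 0.0409), as they were without gland 133 (0.0367, 0.0366 and 0.0361), and without gland 392 Cnn1 was (0.047).

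Oxtr was the 1 gene of the 10 called between tumor groups. In non-TRIM24 tumors it was 7.07 TPM in 219, 32.1 in FVB001 and 18.4 in FVB002, with 219 and FVB002 below every gland and FVB001 above (log2 difference from the glands -0.62 ± 0.49 SE, limma adjusted p = 0.504). The difference was -0.066 without 219 and -1.08 without FVB001, neither past the test (adjusted p = 0.959 and 0.311). All 6 Trim24COE tumors were below all 3 of these. Oxtr reached 1 TPM in only 2 of the 6, so it entered these limma tests through the glands and the non-TRIM24 tumors. The carcinosarcomas were lower than non-TRIM24 tumors by a log2 difference of -3.55 ± 0.53 (SE, limma adjusted p = 0.00786), where 1.52% of all genes tested were called lower. Lmod1 was below in each carcinosarcoma too (-2.26 ± 0.68 SE), which did not pass (adjusted p = 0.0738) but did without tumor 3956 (0.0349) or with upper-quartile scaling (0.0423). The carcinomas were lower by -3.24 ± 0.52 (SE), which did not pass (adjusted p = 0.0823), and 0 of the 10 were called, where 0.0298% of all genes were called lower and Oxtr alone of the 10 had an unadjusted p under 0.05. Without tumor 273_5 or tumor 219 the difference in carcinomas passed (adjusted p = 0.0305 and 0.0111), as it did with upper-quartile scaling (0.0291), quantile normalization (0.0209) or no batch term (0.0245). When the 2 libraries of a mouse were taken as separate, the call in carcinosarcomas was lost (adjusted p = 0.0605). An exact permutation test, two-sided, gave p = 0.1 in either comparison, the minimum for 3 against 3.

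Adipocyte markers moved with Oxtr among the non-TRIM24 tumors. The summed TPM of the 11 adipocyte markers was 51972 in FVB001 and 26758 in FVB002, within or above the range of the fat-rich glands, 183 in 219, and between 137 and 1373 in Trim24COE tumors. Adipoq was 4315 and 1525 TPM in FVB001 and FVB002 and 3.31 TPM in 219. Tumor 219, with as little fat as the Trim24COE tumors, held 7.07 TPM of Oxtr against at most 1.73 TPM in the latter. With the mean adipocyte level as a covariate, the log2 difference of Oxtr between Trim24COE tumors and glands was -3.76 ± 0.45 (SE, limma adjusted p = 0.00376). The adipocyte sums of these tumors did not overlap those of the glands (1829 to 39257 TPM), so this fit cannot separate fat from group. The covariate was not fitted between tumor groups, and the part of fat in either difference was not tested.

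**Figure D4:**
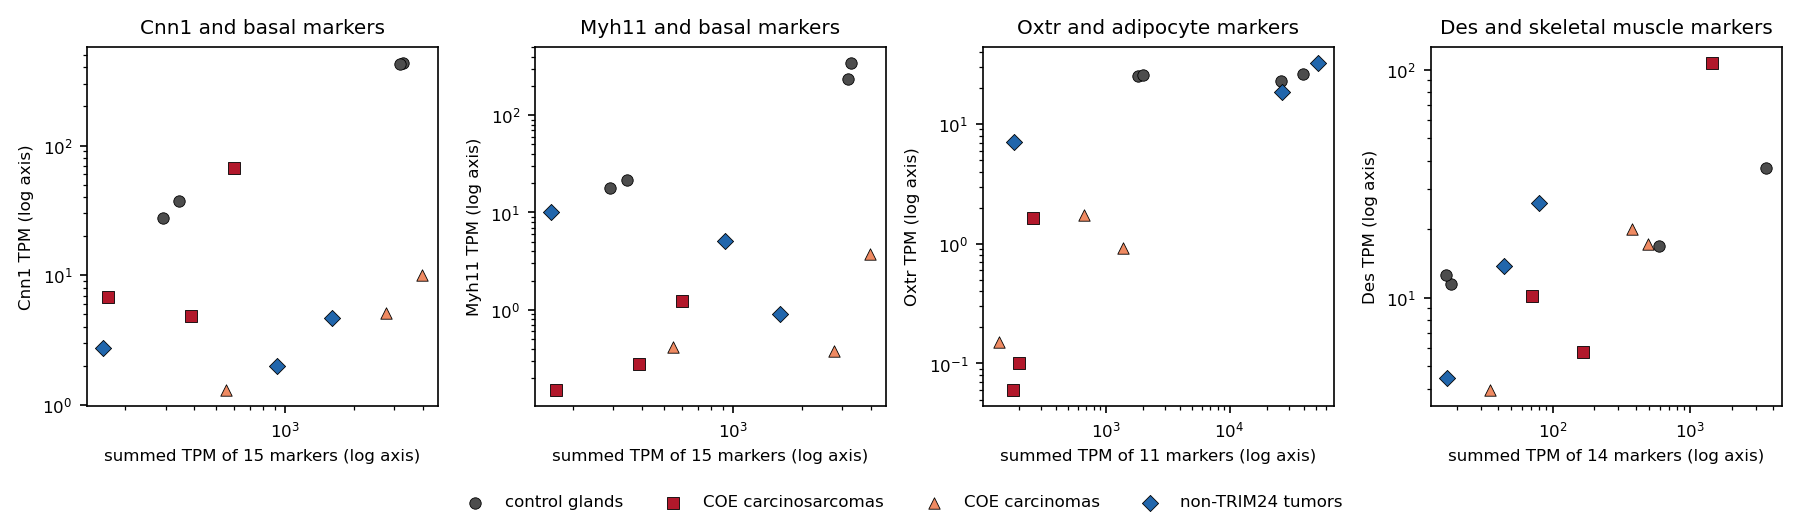
TPM of Cnn1 and Myh11 against the summed TPM of 15 basal markers, of Oxtr against that of 11 adipocyte markers and of Des against that of 14 skeletal muscle markers, on log axes, for the first library of each of 13 mice. Carcinoma 89 matches the epithelium-rich glands in basal markers (3974 TPM) with Myh11 at 3.79 TPM, and glands of low and high fat have Oxtr between 22.7 and 26.1 TPM.

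The basal markers did not run in step with the contractile genes in every tumor. Of the 15 basal and myoepithelial markers, 0 were called in all Trim24COE tumors together by limma (3 had an unadjusted p under 0.05), where 9.13% of all genes were called lower. Of the 15, 13 had a negative difference there, and their median log2 difference was -1.43. By class, 5 were lower in carcinosarcomas (13.1% of all genes) and 0 in carcinomas (1.92% of all genes, and 1 marker at an unadjusted p under 0.05). In carcinosarcomas these included Trp63, the master factor of basal cells (log2 difference -2.40, limma adjusted p = 0.0024), Krt5 (-6.20, adjusted p = 0.00359) and Jag2, a Notch ligand (-2.24, adjusted p = 0.0166). Carcinoma 89 held Krt5 at 961 TPM and Krt14 at 1153 TPM, as high as or above glands 417_3 and 517_3 (Krt5 409 and 392 TPM, Krt14 987 and 1064 TPM), with Myh11 at 3.79 TPM against 340 and 235 TPM. Carcinoma 3956 had a basal sum of 2766 TPM with Krt5 at 0.88 and Trp63 at 0.06 TPM, so its sum came from other markers of the list. Between the tumor classes, Itga6, the laminin receptor subunit of basal cells, was lower in carcinosarcomas (-2.86, adjusted p = 0.0467). It was the 1 gene of 13 tested on that list that was called, where 0.698% of all genes were.

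With the mean level of the 15 basal markers as a covariate, added after these values had been seen, 4 of the 10 genes were lower in all Trim24COE tumors: Myh11 (log2 difference -4.37, limma adjusted p = 0.002), Mylk (-2.90, adjusted p = 0.0123), Lmod1 (-2.43, adjusted p = 0.0158) and Oxtr (-3.92, adjusted p = 0.000511). Acta2 was not among these 4 (-1.38, limma adjusted p = 0.278). In carcinomas 6 were lower, Acta2 among them (-2.07, adjusted p = 0.029). In carcinosarcomas, where 5 of the 15 basal markers were called lower, 3 were, and Mylk was no longer called (-0.94, adjusted p = 0.258). The share of all genes called with this covariate is not given.

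Vessel walls are another source of these genes. Of 10 mural (pericyte and vascular smooth muscle) markers, 2 were lower and 1 higher in Trim24COE tumors. Of all genes 9.13% were called lower and 7.96% higher, the shares to set beside each marker count in this paragraph. Rgs5 (log2 difference -1.48, limma adjusted p = 0.0244) and Notch3 (-2.14, adjusted p = 0.027) fell, and Pdgfrb, also made by fibroblasts, rose (adjusted p = 0.0422). The mural sum was between 143 and 245 TPM in glands, 94.5 and 236 in carcinosarcomas, 174 and 184 in carcinomas, and 171 and 395 in non-TRIM24 tumors, and none of Rgs5, Pdgfrb and Notch3 was at 0 in any group. The macrophage markers moved the other way, 8 of 10 being higher in Trim24COE tumors, with sums of 821 to 1465 TPM in glands, 4703 to 7236 in carcinosarcomas and 2372 to 7089 in carcinomas. Of 11 luminal markers 3 were lower, with sums of 1091 to 5431 TPM in glands and 311 to 6587 TPM in Trim24COE tumors. Of 10 endothelial markers 5 were lower, with sums of 357 to 576 TPM in glands and 84.5 to 471 TPM in Trim24COE tumors. Of 11 fibroblast markers 4 were higher, with sums of 1027 to 1806 TPM in glands, 2819 to 10316 TPM in carcinosarcomas and 590 to 3718 TPM in carcinomas. The part of these cell types in the contractile genes was not tested.

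Other parts of the contractile apparatus went both ways. Of 18 further contractile and adhesion genes, 4 were lower and 1 higher in all Trim24COE tumors (9.13% and 7.96% of all genes), and 4 lay below the glands without overlap (7.20% of all), with a median log2 difference of -0.14 against -0.04 over all genes and -2.57 for the 10 genes. Synpo2, an actin-bundling protein of muscle, was between 15.2 and 39.0 TPM in glands and between 0.50 and 4.53 TPM in Trim24COE tumors, with differences of -3.43 in carcinosarcomas (limma adjusted p = 0.00392) and -3.58 in carcinomas (adjusted p = 0.00992). Pdlim3, an actinin-associated protein, went from 111 to 519 TPM in glands to 0.89 to 26.3 TPM in the tumors (-5.59 in carcinosarcomas, adjusted p = 0.00723, and -4.42 in carcinomas, adjusted p = 0.0195). Synm, an intermediate filament partner of desmin, was lower in carcinomas (-2.92, limma adjusted p = 0.0273). Cnn2, the calponin of non-muscle cells, was the gene that rose: it was 26.04 to 66.0 TPM in glands and 96.9 to 235 TPM in Trim24COE tumors (1.74 in carcinosarcomas, adjusted p = 0.0219, where 9.83% of all genes were called higher). Calponin 1 and calponin 2 thus lay on opposite sides of the glands, except that tumor 567 had Cnn1 within their range.

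Among regulators of contraction, Ppp1r14a, the inhibitor subunit CPI-17 of myosin phosphatase, was the 1 gene of 11 tested that was called in carcinosarcomas (log2 difference -1.86, limma adjusted p = 0.0278). There 13.1% of all genes were called lower, and of the 11 regulators 8 had a negative difference and 5 an unadjusted p under 0.05. In carcinomas 0 of 11 were called by limma (1 at an unadjusted p under 0.05), where 1.92% of all genes were called lower. Myocd, myocardin, was at most 0.90 TPM in any first library and was not tested. Of the genes between receptor and calcium, 2 of 11 tested were lower in carcinosarcomas, the calcium sensor Stim1 (-1.60, adjusted p = 0.0244) and the phospholipase Plcb1 (-1.21, adjusted p = 0.0254), and 1 was higher, where 13.1% and 9.83% of all genes were called lower and higher. In carcinomas 0 of 11 were called (2 at an unadjusted p under 0.05). Gnaq, the G protein subunit that couples the oxytocin receptor to phospholipase C, did not pass in all Trim24COE tumors (-0.31, adjusted p = 0.466).

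Across the first libraries of the 10 mice of batch 1, the contractile genes varied together, given here as a description over libraries that share group and tissue makeup. Pearson r on log2(TPM + 1) was 0.986 between Cnn1 and Myl9, 0.974 between Acta2 and Myl9 and 0.969 between Myh11 and Mylk. Oxtr was nearer to Lmod1 (0.908) and Myh11 (0.896) than to Acta2 (0.631) or Tagln (0.360). Des stood apart, with r between -0.086 and 0.375 to the other 9. Of 13764 other genes searched, Ing3 (0.969), Cnksr3, Sox7, Fam43a and Olfml2a were nearest to Acta2, Irx4 (0.995), Lmx1b, Mrvi1, Reps2 and Slc44a4 to Myh11, and Lrrc3 (0.987), Acot2, Tox2, Cxcl15 and Dkkl1 to Oxtr.

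The repeat libraries, from 2 mice, give a measure of the error of these values. Each is in batch 2 and its first library in batch 1, so library and batch cannot be told apart. Between the first and second library of gland 133 the 10 genes moved by -0.49 to 0.37 on the log2 scale, and between those of tumor 3956 by -0.30 to 0.45. Mylk was lower in both second libraries, at 13.99 against 20.0 TPM and 1.95 against 2.63 TPM, and Acta2 higher, at 203 against 157 TPM and 161 against 126 TPM. These shifts are small beside the differences called above and of the size of the Trim24COE class differences in Mylk (0.25) and Acta2 (0.57).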

How the data were processed

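RNA-seq of whole mammary tissue was read from the tables of TPM that the authors deposited. Per the methods and the labels, the authors aligned reads to GRCm38 (mm10) with STAR and estimated transcript abundance with RSEM, in TPM, with GENCODE annotation; the labels also name TopHat and Cufflinks, and labels and methods differ on the RNA and library kits. TPM of a library sum to 1 fixed total (999999 to 1000001 here), so depth is unknown. Groups were taken from the labels.

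Members and lists were chosen with earlier results of these data known. The fits used limma 3.58.1 in R 4.3.3 on log2(TPM + 1), with a variance trend, over genes that reached 1 TPM in at least the number of libraries of the smaller group, with Benjamini-Hochberg adjustment over all genes tested and a threshold of 0.05, two-sided. Within batch 1, 1 library a mouse (the first) and only the groups compared were fitted. Fits that held non-TRIM24 tumors took in all 15 libraries, a batch term, at least 1 TPM in 3 libraries, and a correlation of 0.951 between libraries of 1 mouse (statmod 1.5.0), kept at that value where leaving out mouse 133 or 3956 left none to estimate. Exact permutation tests were run in R on log2(TPM + 1), and figures used Python 3.11.15 with matplotlib 3.10.9. The fits were tested on simulated data. Beyond the 10 genes, the text names, per list and for either Trim24COE class against the glands or each other, up to 3 called genes a direction with the smallest adjusted p, defining markers of cell types, and the 5 genes with the highest r to Acta2, Myh11 and Oxtr. Srf, Myocd and Gnaq were named after their values were seen. Some items that the rule would name are not reported here. Alternatives varied the pseudocount (0.1), filter, scaling, samples fitted, repeat libraries, batch term, adipocyte covariate and each mouse; the basal covariate and the pairs of glands were chosen after seeing the data.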

Additional observations from a re-analysis of the deposited data

Results flagged for a closer look

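The change of Oxtr from the control glands differed between tumor groups: the carcinosarcomas of Trim24COE mice were lower than the non-TRIM24 tumors by a log2 difference of -3.55 ± 0.53 (SE, limma adjusted p = 0.00786), with each of 3 carcinosarcomas below each of 3 non-TRIM24 tumors. Among the carcinosarcomas Oxtr reached 1 TPM only in tumor 567, so it entered the test through the glands and the non-TRIM24 tumors. The non-TRIM24 tumors are all in batch 2 and the carcinosarcomas all in batch 1, and the batch term rests on gland 133 and tumor 3956. Adipocyte markers were higher in FVB001 and FVB002 and not in 219, and their part in the difference was not tested. By Dixon's criterion at 95%, 0 of 20 sets of values (10 genes in control glands and in Trim24COE tumors) held a mouse far from the others, where chance gives about 1 in 20.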

How the results depend on the processing

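The fall of Oxtr in all Trim24COE tumors, in carcinosarcomas and in carcinomas against control glands, and that of Myh11 and Mylk in all Trim24COE tumors, kept direction and call under every alternative run. No called gene changed direction. Against glands 133 and 392 alone, 3 genes were called in Trim24COE tumors. With the adipocyte covariate 7 were called in all Trim24COE tumors, 8 in carcinosarcomas and 6 in carcinomas, with the basal covariate 6 in carcinomas, and against glands 417_3 and 517_3 alone 8 in either class. In carcinomas the count was 1 without the filter, 5 with all batch 1 groups fitted together, and 1 to 5 without 1 mouse. For non-TRIM24 tumors against glands it was 3 without the batch term and 0 to 3 without 1 mouse. For carcinomas against non-TRIM24 tumors it was 1 (Oxtr) with upper-quartile scaling, quantile normalization or no batch term and 0 to 1 without 1 mouse, and for carcinosarcomas against them 2 with upper-quartile scaling, 0 with libraries of 1 mouse taken as separate, and 1 to 2 without 1 mouse (2, with Lmod1, without tumor 3956). The cause of these shifts was not tested, and the share of all genes called is not given for these alternatives. For carcinosarcomas against non-TRIM24 tumors no value within batch 2 could be had, as it holds no carcinosarcoma. No paired analysis was possible because groups share no mouse numbers.

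Directions turned only in differences past no test under either setting, given here as log2 values. In all Trim24COE tumors, Tagln was at 0.52 and Actg2 at 0.77 against glands 133 and 392, Actg2 at 0.20 with the basal covariate, and Des at 0.35 with the adipocyte covariate, 0.27 against glands 417_3 and 517_3, and -0.78 to 0.12 without 1 mouse. In carcinosarcomas the basal covariate gave Acta2 1.00, Tagln 2.16, Cnn1 0.26, Myl9 0.12, Actg2 1.58 and Des -0.68, glands 133 and 392 gave Tagln 1.04, Actg2 0.029 and Des -0.37, and omissions gave Tagln -1.09 to 0.15 and Des -1.09 to 0.91. In carcinomas glands 133 and 392 gave Actg2 1.501, and omissions Actg2 -1.14 to 0.26 and Des -0.96 to 0.085. Between the classes, omissions gave Acta2 -0.29 to 1.19, Mylk -0.095 to 0.84, Myl9 -0.25 to 1.05 and Des -0.51 to 1.49. For carcinomas against non-TRIM24 tumors, upper-quartile scaling gave Acta2 -0.12, Cnn1 -0.021 and Des -0.011, quantile normalization Des -0.058, no batch term Acta2 -0.029, separate libraries Acta2 -0.19 and Cnn1 -0.38, and omissions Acta2 -0.14 to 0.78, Tagln -0.36 to 0.48, Cnn1 -0.24 to 0.85 and Des -0.29 to 0.98. For carcinosarcomas against them, omissions gave Acta2 -0.058 to 1.42, Mylk -0.87 to 0.077, Actg2 -1.07 to 0.54 and Des -0.20 to 1.80. In batch 2 alone, without a test, Tagln was at 0.27, Myl9 at 0.24, Actg2 at 0.11 and Lmod1 at 0.069 for non-TRIM24 tumors against the gland, and Tagln at 0.38 (from -0.047) for the carcinoma against non-TRIM24 tumors.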
